A study of Leucoraja erinaceus with 6 samples.

Results

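Genes of neural progenitors and of the cell cycle were examined in sorted spinal cord cells of little skate (Leucoraja erinaceus) embryos. The set held 6 of the 7080 rows of the deposited expression table, picked by contig identifier and described there as inhibitor of DNA binding 4 (ID4, TRINITY_DN17966_c11_g3_i2), fatty acid binding protein 7 (FABP7, TRINITY_DN17565_c0_g1_i1), cyclin D1 (CCND1, TRINITY_DN16727_c0_g2_i2), cyclin-dependent kinase 1 (CDK1, TRINITY_DN11700_c0_g2_i1), the replication licensing factor MCM7 (TRINITY_DN26567_c0_g1_i1), and cyclin B1 (CCNB1, TRINITY_DN8686_c0_g1_i1). Pectoral fin motor neurons gave 3 libraries (replicates 1, 2 and 3), and tail spinal cord cells gave 3 (replicates 1, 2 and 4), and the values of a group follow that replicate order. All came from wild type animals at stages 30 to 31, and RNA was taken from cells sorted by hand. The groups differ by label in cell class and in axial level, which cannot be told apart here, and how motor neurons were recognised for the sort is not stated in those labels. Values are TPM, a level scaled for contig length and library total, so levels can be compared between rows. A row is a single contig, so its level need not be the whole level of a gene.

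In the embryonic spinal cord, dividing progenitors, radial glia among them, line the central canal. They leave the cell cycle as they become neurons, and later give rise to glia. Motor neurons are postmitotic cells. Progression through the cycle is driven by cyclins that bind and activate cyclin-dependent kinases, D-type cyclins in G1 and B-type cyclins in mitosis, and DNA is copied once per cycle after the MCM helicase has been loaded on it.

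Averaged over the 6 libraries, ID4 and FABP7 were the most abundant of the set, but CCND1 was the highest member in tail replicates 2 and 4. Of the other 4 progenitor genes with a row, 1 was higher and 3 were lower in fin motor neurons by mean log2(TPM + 1). Their median difference was -1.03, and 43.5% of all tested rows were higher. The replication and mitosis members lay between 0 and 2.91 TPM. By mean TPM over all 6 libraries, ID4 ranked 64th, FABP7 155th and CCND1 188th of 7080 rows, against ranks of 4134 for CDK1, 5401 for MCM7 and 5433 for CCNB1. ID4 and MCM7 were higher in each fin motor neuron library than in any tail library, and CCND1 was lower. Of tested rows 4.18% were separated in the direction of ID4 and MCM7 and 7.6% in that of CCND1, and over all 7080 rows these shares were 4.6% and 4.19%. In the test over the whole table none of the 5 members tested passed: 0 had an adjusted p under 0.05 (limma, Benjamini-Hochberg over 3752 rows), a threshold that 3 rows, or 0.08% of those tested, passed. Of those rows 2 (0.0533%) were higher in fin motor neurons and 1 (0.0267%) was higher in tail cells. At an unadjusted p under 0.05 there were 2 members higher in pectoral libraries, where 3.09% of tested rows were, and 1 higher in tail libraries, where 3.94% were. Without tail replicate 4 these counts were 0 and 1, and without pectoral replicate 2 they were 2 and 0. With quantile normalization they were 3 and 0, as CCND1 no longer reached that unadjusted p and FABP7 did. FABP7 also reached it without pectoral replicate 1 and tail replicate 4 together. In the main fit the 2 members higher in pectoral libraries were ID4 and MCM7, and MCM7 entered the test only through its pectoral values. ID4 did not reach that unadjusted p with the replicate number as a block. MCM7 did not reach it with no filter, without a variance trend, or without tail replicate 1 or tail replicate 2. Neither reached it without pectoral replicate 1 and tail replicate 4 together. CCNB1 was not tested, as it was not at 1 TPM or more in at least 3 libraries.

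**Figure D1:**
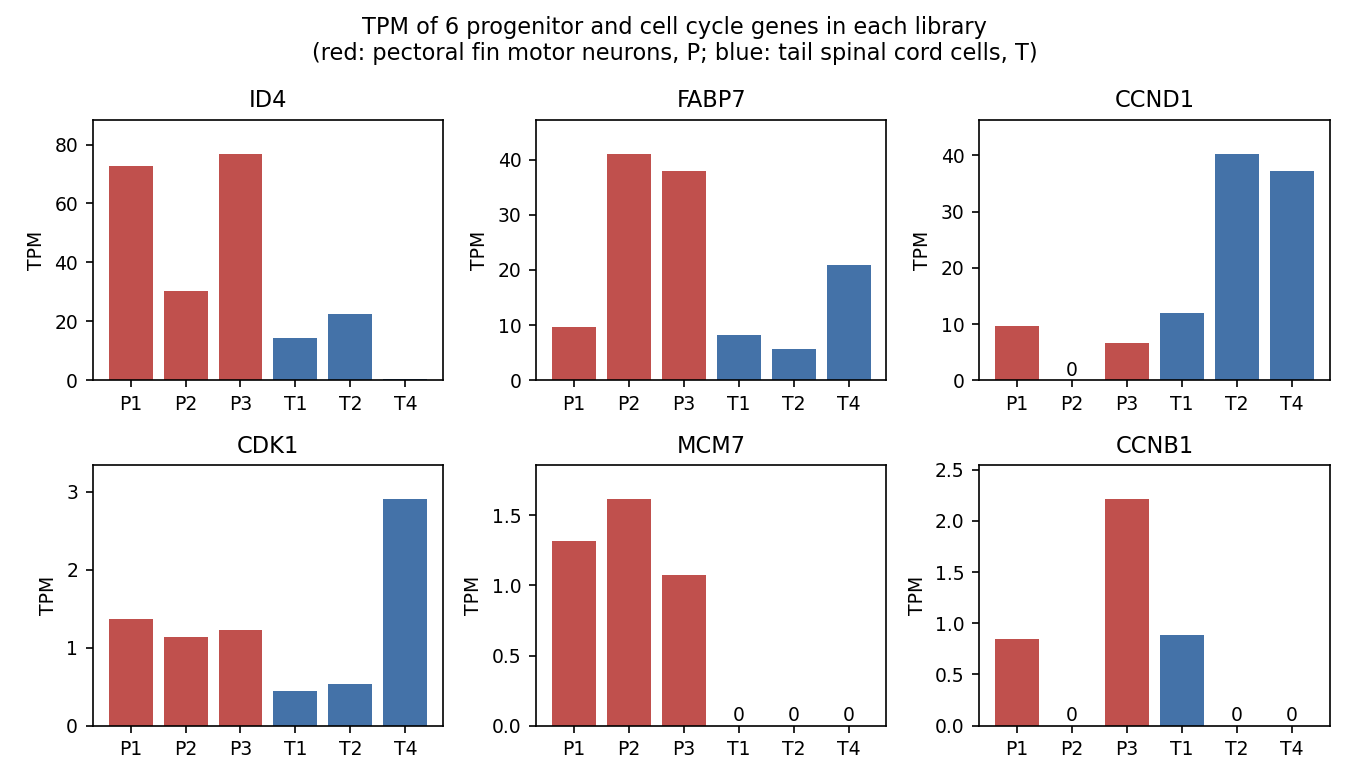
Level in TPM (vertical axes, from 0, different in each panel) of the 6 genes in each library, with pectoral fin motor neurons (P1 to P3) in red and tail spinal cord cells (T1, T2, T4) in blue. ID4 reached 76.9 TPM and CCND1 40.3 TPM, whereas CDK1, MCM7 and CCNB1 stayed under 3 TPM, and a 0 marks a library in which the row is listed at 0.

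How completely the libraries sampled the table bears on every low value. In pectoral replicate 1, 0.0706% of rows were listed at 0 and 95% of rows lay at 0.588 TPM or more, so nearly every row in the table had a value there. The listed rows of that library sum to 50000 TPM, and whether rows were chosen for the table by their value in it is not stated. Counts of genes present in pectoral replicate 1, and shares of all rows, may depend on that choice. The share of rows at 0 was 30.6% and 29.7% in pectoral replicates 2 and 3, and 14.8%, 22.4% and 50.2% in tail replicates 1, 2 and 4. TPM do not preserve the number of reads, so depth is unknown and a value of 0 is given as listed at 0 and not as absence. Of 13 motor neuron genes 6 had a described row, with a summed level of 15.6 to 21.6 TPM in fin motor neurons and 2.91 to 5.96 TPM in tail cells, and 0 of the 4 tested passed. Of the 6, ISL1, ISL2 and NGFR had all fin motor neuron libraries above all tail libraries, while FOXP1, SLC18A3 and CHAT overlapped. Such a separation, higher in fin motor neurons, was found in 4.6% of all 7080 rows and in 4.18% of tested rows. ISL1 and NGFR entered the test only through their pectoral values, so a difference was built into their being tested. ISL2 was at 1 TPM or more in too few libraries to be tested. It stood at 3.43, 0.956 and 0.327 TPM in fin motor neurons, against 0.139, 0 and 0 TPM in tail cells. CHAT, the enzyme that makes acetylcholine, stood at 2.61, 3.72 and 0 TPM in fin motor neurons, against 2.85, 2.81 and 0.522 TPM in tail cells. Contigs carry no verified skate orthology, so a symbol names the protein match given in the description. Whether libraries came from separate embryos is not stated, so p-values measure the spread between these libraries only.

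ID4 is a helix-loop-helix protein without a DNA-binding region that holds back bHLH factors and is found in progenitors and glial cells. By mean TPM, ID4 was the most abundant member. It stood at 72.6, 30.3 and 76.9 TPM in fin motor neurons, against 14.4, 22.4 and 0.309 TPM in tail cells. The lowest pectoral library was thus above the highest tail library, by less than the distance between pectoral replicates 2 and 3. Mean levels of ID4 were 59.9 ± 25.8 TPM for fin motor neurons and 12.4 ± 11.2 TPM for tail cells (SD, n = 3 each), a ratio of means of 4.84. On the log2(TPM + 1) scale the difference was 2.86 (SE 0.94, 95% interval 0.94 to 4.78, limma adjusted p = 0.49). An exact two-sided permutation test over the 6 libraries gave p = 0.1, the smallest that 3 libraries against 3 can give. Without tail replicate 4, the library with the most rows at 0, the difference of mean log2(TPM + 1) was 1.57.

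Within each library, ID4 lay above 98.3% to 99.6% of all rows in the pectoral libraries. In the tail libraries it lay above 90.5%, 97.5% and 64.2% of rows in replicates 1, 2 and 4. It was the highest of the 6 members in pectoral replicates 1 and 3 and in tail replicate 1. An undescribed contig of the same Trinity cluster, TRINITY_DN17966_c11_g1_i1, stood at 8.45, 1.63 and 49.1 TPM in fin motor neurons, against 0.201, 3.35 and 0.372 TPM in tail cells, with overlapping groups. Another, TRINITY_DN17966_c5_g2_i1, stood at 1.64, 0.761 and 0.654 TPM in fin motor neurons, against 0.302, 17.7 and 0 TPM in tail cells, with its highest value in tail replicate 2. Both contigs were chosen after values were seen, and whether either belongs to the same gene was not tested. ID2, a relative of ID4 with the same mode of action and the other ID gene with a described row, was far lower. It stood at 3.42, 7.04 and 1.06 TPM in fin motor neurons, against 7.48, 2.82 and 0 TPM in tail cells, with overlapping groups (log2 difference 0.39, SE 1.06, limma adjusted p = 0.97). The skate gene annotation Leri_hhj_1 lists 3 genes of this family, id1, id2a and id4.

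FABP7, a fatty acid carrier of radial glia and their progeny, was present at over 5 TPM in all 6 libraries. It stood at 9.62, 41.1 and 37.9 TPM in fin motor neurons, against 8.12, 5.74 and 21.0 TPM in tail cells. Pectoral replicates 2 and 3 were the highest, and pectoral replicate 1 lay below tail replicate 4, so the groups overlapped. Means were 29.5 ± 17.3 TPM for fin motor neurons and 11.6 ± 8.19 TPM for tail cells (SD, n = 3 each), a difference that did not pass the test (log2 difference 1.23, SE 0.88, 95% interval -0.57 to 3.03, limma adjusted p = 0.87, exact permutation p = 0.2). Without pectoral replicate 1 the log2 difference was 1.87. FABP7 and ID4 did not keep a fixed ratio: FABP7 was 0.132, 1.36 and 0.492 times ID4 in the pectoral libraries and 0.563, 0.257 and 67.9 times ID4 in the tail libraries.

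A second contig of the FABP7 Trinity gene, described as the b form where the member is described as the a form, stood at 1.02, 0.362 and 0.0724 TPM in fin motor neurons and had a 0 in each of the 3 tail columns. The 2 rows are contigs of 1 Trinity gene, and the annotation Leri_hhj_1 lists 1 gene whose symbol begins with fabp7. Whether they mark separate genes was not tested. The level in the second row was at most 10.6% of that in the first, in pectoral replicate 1. Of the other fatty acid binding proteins, FABP3, known from muscle and heart, was at 6.33e-06, 12.5 and 3.01 TPM in fin motor neurons, against 0.286, 4.93 and 0 TPM in tail cells.

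CCND1, the cyclin that partners CDK4 and CDK6 to drive cells through G1, ran the other way. It stood at 9.59, 0 and 6.66 TPM in fin motor neurons, against 11.9, 40.3 and 37.2 TPM in tail cells. All tail libraries lay above all pectoral libraries, but pectoral replicate 1 and tail replicate 1 were close, while tail replicates 2 and 4 were over 3 times higher than either. The log2 difference was -2.66 (SE 0.98, 95% interval -4.66 to -0.66, limma adjusted p = 0.54, exact permutation p = 0.1). Without pectoral replicate 2, in which the row was listed at 0, it was -1.60. CCND1 exceeded ID4 in tail replicates 2 and 4 and was below it in the other libraries: the ratio of ID4 to CCND1 was 7.57 and 11.5 in pectoral replicates 1 and 3, and 1.21, 0.555 and 0.00831 in tail replicates 1, 2 and 4. In pectoral replicate 2 no such ratio could be formed.

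**Figure D2:**
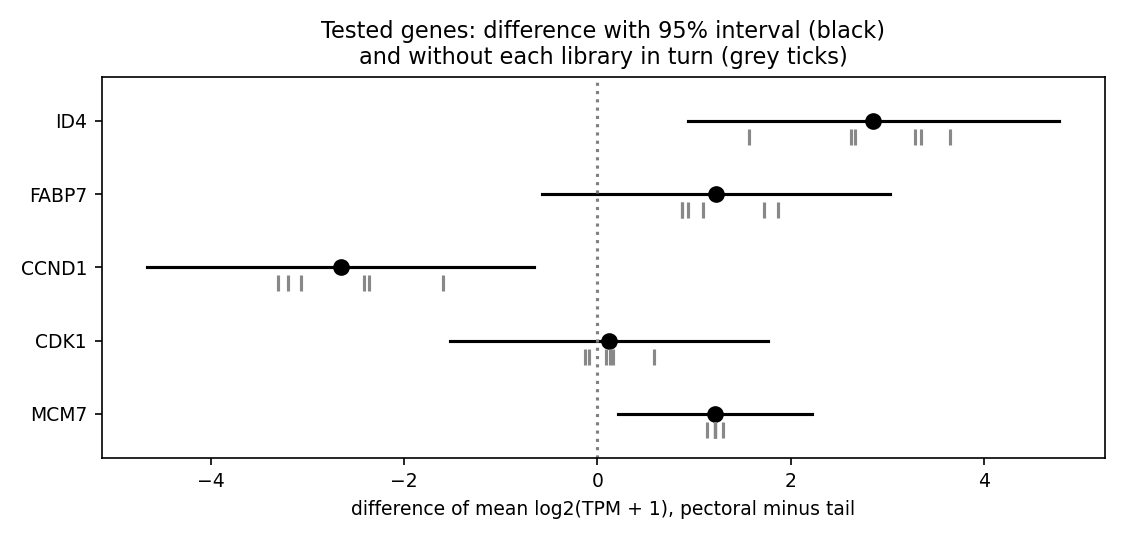
Difference of mean log2(TPM + 1), pectoral minus tail, for the 5 members that were tested, with its 95% interval as a black line and the 6 values obtained without 1 library each as grey ticks. Intervals of ID4, CCND1 and MCM7 leave out 0 before adjustment, and those of FABP7 and CDK1 include it. MCM7 entered the test only through its pectoral values, and its difference depends on the pseudocount. No member passed after adjustment over 3752 rows.

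The other gene of the G1 and S entry list with a row, CDKN1B (p27), inhibits cyclin-dependent kinases and rises as cells leave the cycle. It stood at 2.51, 16.1 and 0.205 TPM in fin motor neurons, against 7.5, 4.72 and 5.49 TPM in tail cells. Pectoral replicate 2, in which CCND1 was listed at 0, had the highest CDKN1B value, and pectoral replicate 3 the lowest, so the groups overlapped (log2 difference -0.71, SE 1.04, limma adjusted p = 0.91). Of the 23 genes on that list 2 had a described row. Both were tested and 0 passed in either direction. Their median log2 difference of -1.68 is the midpoint of the member CCND1 (-2.66) and CDKN1B (-0.71), so it does not describe the list. All tested rows had a median of -0.18.

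MCM7, a subunit of the helicase that opens DNA at replication origins, was at 1.32, 1.62 and 1.07 TPM in fin motor neurons and listed at 0 in each tail library. Every pectoral library was therefore above every tail library (exact permutation p = 0.1), and no fold can be given against a group listed at 0. The difference of mean log2(TPM + 1) was 1.22 (SE 0.49, limma adjusted p = 0.57), and this value depends on the pseudocount, being 3.83 with a pseudocount of 0.1 and 0.34 with a pseudocount of 5. MCM7 entered the test only through its pectoral values, so a difference was built into its being tested. There were 126 such tested rows with all 3 libraries of a group at 1 TPM or more and no library of the other, of which 1 passed. With only rows at 1 TPM or more in all 3 libraries of a group kept, MCM7 passed (limma adjusted p = 0.00634), among 76 of 1929 rows that did. This filter is set by the group labels, and MCM7 met it through its pectoral values only. In the pectoral libraries MCM7 lay above 40.3%, 68.3% and 62.9% of all rows.

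The remaining replication genes were low and did not separate the groups. GINS2, which works with the MCM helicase, stood at 1.05, 2.73 and 0 TPM in fin motor neurons and had a 0 in each of the 3 tail columns. PCNA, the sliding clamp of the replication polymerases, stood at 1.17, 0 and 0.0603 TPM in fin motor neurons, against 0, 0.601 and 0 TPM in tail cells. RFC3, of the complex that loads this clamp, stood at 0.979, 0 and 0.423 TPM in fin motor neurons, against 0.603, 0 and 0 TPM in tail cells. CHAF1A, of the complex that places histones on new DNA, went above 10 TPM once, in tail replicate 1, with 2.27, 1.12 and 0 TPM in fin motor neurons, against 11.5, 3.08 and 0 TPM in tail cells. GINS2, PCNA and RFC3 were at 1 TPM or more in too few libraries to be tested. Of 52 replication genes 5 had a described row, although Leri_hhj_1 names 49 of them in the skate, so most of this machinery could not be examined here. Whether the others lie among undescribed rows or outside the deposited rows was not tested. Of the 5 with a described row, 2 were tested and 0 passed in either direction (median log2 difference 0.13).

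CDK1, the kinase that drives entry into mitosis, was low and close to even. It stood at 1.36, 1.13 and 1.22 TPM in fin motor neurons, against 0.448, 0.530 and 2.91 TPM in tail cells. The pectoral libraries lay within 0.3 TPM of each other and inside the range of the tail libraries, where replicates 1 and 2 were the lowest and replicate 4 the highest of all 6. Means were 1.24 ± 0.116 TPM for fin motor neurons and 1.29 ± 1.40 TPM for tail cells (SD, n = 3 each). The log2 difference was 0.12 (SE 0.81, 95% interval -1.52 to 1.77, limma adjusted p = 0.99, exact permutation p = 1), an interval that takes in changes of over 2-fold in either direction. Its sign was negative without tail replicate 1 (-0.13) or tail replicate 2 (-0.09).

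CCNB1, the partner of CDK1 in mitosis, stood at 0.847, 0 and 2.21 TPM in fin motor neurons, against 0.886, 0 and 0 TPM in tail cells. It reached 1 TPM in pectoral replicate 3 alone, and 3 of 6 libraries were listed at 0. Pectoral replicate 1 and tail replicate 1 were nearly equal, so the groups overlapped (exact permutation p = 0.7). The orders of CDK1 and CCNB1 over the libraries differed: tail replicate 4, the highest for CDK1, was listed at 0 for CCNB1. No library had CDK1, MCM7 and CCNB1 all above 1 TPM except pectoral replicate 3, at 1.22, 1.07 and 2.21 TPM.

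**Figure D3:**
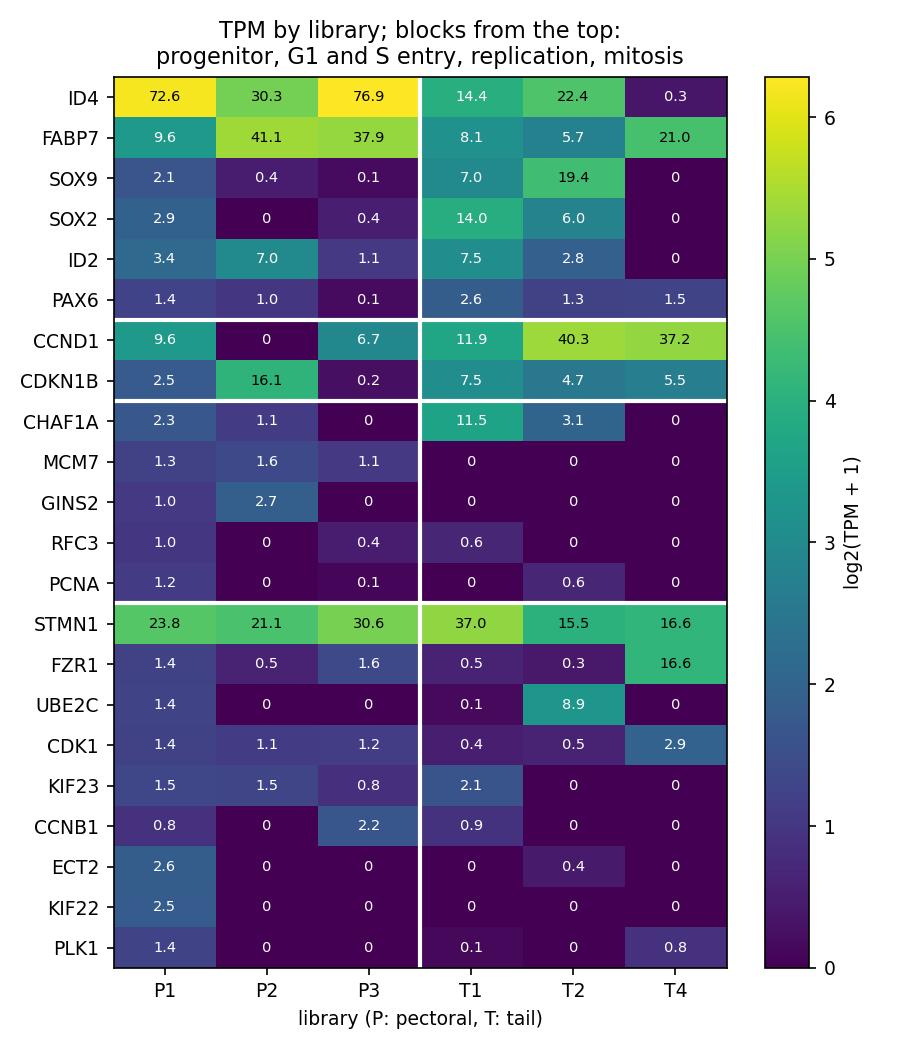
TPM (numbers in cells) and log2(TPM + 1) (colour) of the 22 genes with a described row on the progenitor, G1 and S entry, replication and mitosis lists, with pectoral libraries (P1 to P3) left of tail libraries (T1, T2, T4) and white lines between lists and groups. Most replication and mitosis rows are near 1 TPM in P1 and at 0 in 1 or more of the other libraries, while STMN1 lies between 15.5 and 37.0 TPM in all 6.

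Of 64 genes on the mitosis list 9 had a described row and 4 were tested, of which 0 passed in either direction (3 higher and 1 lower in pectoral libraries, median log2 difference 0.17). The list's leading row was STMN1, a tubulin-binding protein of dividing cells that developing neurons also express, at 23.8, 21.1 and 30.6 TPM in fin motor neurons, against 37.0, 15.5 and 16.6 TPM in tail cells, with overlapping groups. FZR1, an activator of the anaphase-promoting complex that also holds cells in G1, was at 1.37, 0.526 and 1.63 TPM in fin motor neurons, against 0.539, 0.350 and 16.6 TPM in tail cells, where replicate 4 stood apart. KIF23, a kinesin of cell division, was at 1.54, 1.48 and 0.793 TPM in fin motor neurons, against 2.09, 0 and 0 TPM in tail cells. UBE2C, a ubiquitin-conjugating enzyme that ends mitosis, was at 1.42, 0 and 0 TPM in fin motor neurons, against 0.115, 8.93 and 0 TPM in tail cells.

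ECT2, which is needed for the cleavage furrow, and KIF22, a chromosome-binding kinesin, were listed at 0 in pectoral replicates 2 and 3 but stood at 2.59 and 2.53 TPM in pectoral replicate 1. In tail libraries ECT2 was at 0, 0.373 and 0 TPM and KIF22 at 0 throughout. PLK1, a mitotic kinase named after its values were seen, had the same form, with 1.44, 0 and 0 TPM in fin motor neurons, against 0.0916, 0 and 0.846 TPM in tail cells. These values of 1 to 3 TPM in pectoral replicate 1 lie around that library's median of 1.575 TPM over all rows.

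By library, 12, 6 and 5 of the 14 replication and mitosis genes with a row were at 1 TPM or more in pectoral replicates 1, 2 and 3, and 3, 3 and 3 in tail replicates 1, 2 and 4. These are 85.7%, 42.9% and 35.7% in the pectoral libraries, where 75.8%, 39.3% and 38.1% of all rows were at 1 TPM or more. In each tail library the share was 21.4%, where 60.2%, 44.1% and 27.3% of all rows were. The list's share was above that of all rows in pectoral replicates 1 and 2. It was below that share in pectoral replicate 3 and all 3 tail libraries, by under 6 percentage points in tail replicate 4. Genes on the list came from described rows, of which 77.7%, 47.6% and 47.0% were at 1 TPM or more in pectoral libraries. In tail libraries 65.5%, 50.2% and 32.9% of described rows were. Against described rows the list's share was above in pectoral replicate 1 alone. The gaps to all rows in the pectoral libraries were small for a list of 14 genes. Without the 3 members among them the counts were 10, 4 and 2 of 11 genes in pectoral libraries and 3, 3 and 2 in tail libraries. Pectoral replicates 2 and 3 then had 36.4% and 18.2%, below their table shares, like the tail libraries at 27.3%, 27.3% and 18.2%. Pectoral replicate 1, at 90.9% against 75.8% of all rows, was the only library above its table share. That gap is also small for 11 genes, and nearly every row of the table had a value in that library. The number listed at 0 was 0, 7 and 6 of 14 in pectoral libraries and 5, 7 and 10 in tail libraries. The part of library completeness in these counts was not tested. In bulk libraries such as these, fewer dividing cells and less RNA per dividing cell cannot be told apart.

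**Figure D4:**
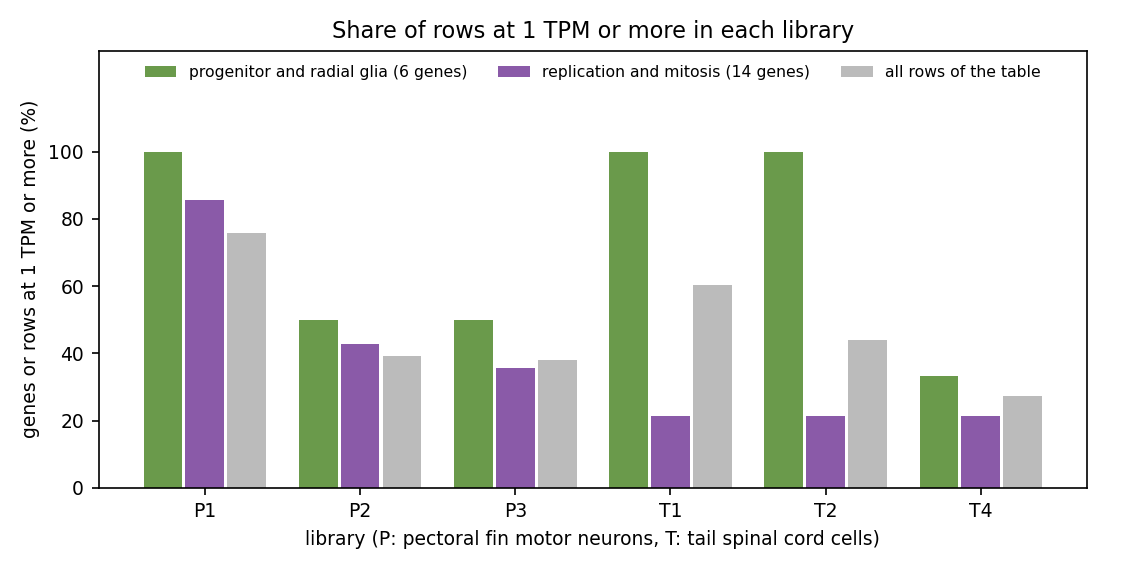
Share of rows at 1 TPM or more (vertical axis, percent) in each library for the 6 progenitor genes (green), the 14 replication and mitosis genes (purple) and all 7080 rows (grey). The replication and mitosis share is 21.4% in each tail library, and all 6 progenitor genes pass 1 TPM in P1, T1 and T2.

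Other genes of division were collected from the descriptions after the table was opened. Of 12 such genes 9, 2 and 1 were at 1 TPM or more in the pectoral libraries, and 4, 4 and 2 in the tail libraries. These are 75.0%, 16.7% and 8.33% in pectoral libraries, where 75.8%, 39.3% and 38.1% of all rows were. In tail libraries they are 33.3%, 33.3% and 16.7%, where 60.2%, 44.1% and 27.3% of all rows were. The list's share lay below that of all rows in every library, and was close to it in pectoral replicate 1. Of the 12, 3 were tested and 0 passed, all with a negative log2 difference, where 43.5% of all tested rows had a positive one. SMC1A, a cohesin subunit that holds sister chromatids together and also works outside mitosis, stood at 3.55, 0 and 0.390 TPM in fin motor neurons, against 3.08, 13.1 and 25.4 TPM in tail cells. This order resembles that of CCND1, with tail replicates 2 and 4 highest and pectoral replicate 2 listed at 0, but pectoral replicate 1 overlapped tail replicate 1 (log2 difference -2.64, SE 1.04, limma adjusted p = 0.57). ANAPC15, at 1 TPM or more in too few libraries to be tested, stood at 5.38, 4.75 and 0 TPM in fin motor neurons. In tail cells it stood at 0.490, 0 and 0.0296 TPM. KIFC1, a spindle kinesin not among the 4 of highest mean TPM in this group, had 3.25 TPM in pectoral replicate 1. It was under 0.05 TPM in every other library.

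Of the other 4 progenitor genes with a row, none had all pectoral libraries above all tail libraries, and 0 passed the test. SOX2, which maintains neural progenitors, stood at 2.85, 0 and 0.439 TPM in fin motor neurons, against 14.0, 5.98 and 0 TPM in tail cells. Another contig of that Trinity gene, described as SOX19A, stood at 1.07, 0 and 0.439 TPM in fin motor neurons, against 0.451, 2.56 and 0 TPM in tail cells. Whether the contigs mark separate genes was not tested. SOX9, of radial glia and glial precursors, stood at 2.14, 0.382 and 0.134 TPM in fin motor neurons, against 6.95, 19.4 and 0 TPM in tail cells. In these SOX2 and SOX9 rows, tail replicates 1 and 2 were above all pectoral libraries, but tail replicate 4 was listed at 0. The groups thus overlapped (limma adjusted p = 0.87 for SOX2 with a log2 difference of -1.41, and 0.84 for SOX9 with -1.68). A second, lower SOX9 row stood at 2.16, 0.660 and 0.270 TPM in fin motor neurons, against 7.15, 0.297 and 0 TPM in tail cells. There tail replicate 2 lay below pectoral replicates 1 and 2. PAX6, a factor of ventral and intermediate progenitors, stood at 1.40, 0.982 and 0.142 TPM in fin motor neurons, against 2.59, 1.33 and 1.46 TPM in tail cells. Of 49 progenitor genes 6 had a described row, all 6 were tested, and 0 passed in either direction, 3 with a positive and 3 with a negative difference (median -0.12). Without ID4 and FABP7 the other 4 had a median of -1.03, with 1 positive and 3 negative, where 43.5% of all tested rows were positive.

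ID4 and FABP7 were the highest progenitor genes in pectoral replicates 2 and 3, where SOX2 and the more abundant SOX9 row were under 0.5 TPM. In tail replicate 4, FABP7 at 21.0 TPM and PAX6 at 1.46 TPM were present while SOX2, SOX9 and ID2 were listed at 0 and ID4 was at 0.309 TPM. PARD3, a polarity protein of the apical surface of progenitors, stood at 1.46, 5.61 and 1.27 TPM in fin motor neurons, against 4.15, 10.4 and 4.24 TPM in tail cells. RBPJ, the nuclear effector of Notch signalling, is not among the 4 of highest mean TPM in its group. It had 1.21 TPM in pectoral replicate 1 and was listed at 0 elsewhere. These 2 rows belong to a group of 7 collected from descriptions after the table was opened, of which 2 were tested and 0 passed.

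Of the markers of differentiated glia with a row, SPARC and GPM6B each passed 10 TPM in a pectoral library, and all 3 were listed at 0 in tail replicate 4. SPARC, which glia and connective tissue secrete, stood at 1.14, 0.832 and 12.0 TPM in fin motor neurons, against 6.03, 8.09 and 0 TPM in tail cells. GPM6B, a membrane glycoprotein of glia and neurons, stood at 1.06, 12.6 and 2.24 TPM in fin motor neurons, against 3.11, 1.80 and 0 TPM in tail cells. A second, lower GPM6B row stood at 1.71, 3.59 and 0.0369 TPM in fin motor neurons, against 0.375, 0.123 and 0 TPM in tail cells. SLC1A2, the glial glutamate transporter, stood at 0.738, 0.916 and 0 TPM in fin motor neurons, against 2.76, 1.17 and 0 TPM in tail cells. Of 26 genes 3 had a row, 2 were tested and 0 passed in either direction.

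Genes of neurons that have left the cycle covered a wide range of levels. RTN1, a reticulon of neurons, stood at 38.7, 64.8 and 134 TPM in fin motor neurons, against 71.1, 39.1 and 29.6 TPM in tail cells (log2 difference 0.67). A second RTN1 row stood at 13.6, 46.7 and 41.3 TPM in fin motor neurons, against 14.4, 4.14 and 0.126 TPM in tail cells. Its groups also overlapped, with a larger log2 difference of 2.79 (SE 0.98, limma adjusted p = 0.54). GAP43, of growing axons, stood at 17.1, 22.9 and 43.7 TPM in fin motor neurons, against 42.9, 7.47 and 4.61 TPM in tail cells. NCAM1, an adhesion molecule of neurons, stood at 7.52, 1.61 and 12.6 TPM in fin motor neurons, against 32.3, 12.8 and 0.555 TPM in tail cells. STMN2 and UCHL1, both abundant in neurons, were lower: STMN2 lay between 0.0311 and 3.05 TPM, and UCHL1 between 0 and 6.11 TPM. The neuron list had rows for 5 genes, and 0 of the 4 tested passed (median log2 difference 0.65, with RTN1 taken by its more abundant row). SOX4 and MTURN, associated with neuronal differentiation and collected from descriptions after the table was opened, were present in every library. SOX4 stood at 2.66, 12.5 and 2.64 TPM in fin motor neurons, against 6.77, 6.58 and 7.73 TPM in tail cells, and MTURN at 3.54, 9.61 and 3.82 TPM in fin motor neurons, against 6.08, 4.50 and 7.71 TPM in tail cells.

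Markers of cells outside the cord were checked beside these values. Of the lists for skeletal muscle, blood, endothelium and epidermis no gene had a described row (0 of 23, 0 of 14, 0 of 11 and 0 of 9), so those cells could not be checked by them. Of the 14 microglia and macrophage genes 1, CD74, had a row, at 3.31, 2.43 and 0.698 TPM in fin motor neurons, against 0.146, 3.48 and 3.74 TPM in tail cells. The connective tissue, cartilage and notochord list had rows for COL2A1 and for SHH, a signal that the floor plate of the cord also makes. The list's summed level was 5.58 to 70.0 TPM in pectoral and 0 to 5.85 TPM in tail libraries. SHH stood at 3.40, 0.931 and 1.09 TPM in fin motor neurons, against 0.945, 2.64e-08 and 0 TPM in tail cells, with overlapping groups. A second, lower SHH row stood at 1.52, 0.888 and 0.875 TPM in fin motor neurons, against 0.676, 0 and 0 TPM in tail cells. In that second row all pectoral libraries lay above all tail libraries, as in 4.6% of all 7080 rows. COL2A1, a cartilage and notochord collagen, stood at 2.22, 69.0 and 4.49 TPM in fin motor neurons, against 4.91, 0.109 and 0 TPM in tail cells. Pectoral replicate 2, which held this high value, also had the highest FABP7 and CDKN1B and a CCND1 listed at 0, and the part of such cells in those values was not tested.

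The described rows most like each member over the 6 libraries, by Pearson r of log2(TPM + 1), are given as a description. The 6 points fall in groups of 3, and between 3 and 17 of about 935 described tested rows had r over 0.9 with any given member. ID4 was closest to RAB5A (r = 0.951) and stathmin 2b (r = 0.927), FABP7 to microsomal glutathione S-transferase 3a and CELF5 (cugbp, Elav-like family member 5a) (both r = 0.941). CCND1 was closest to CDC42 binding protein kinase beta and the G protein subunit alpha inhibiting activity polypeptide 1 (both r = 0.948). The kinase stood at 3.14, 0 and 4.08 TPM in fin motor neurons, against 2.62, 16.6 and 22.5 TPM in tail cells. CDK1 was closest to basic leucine zipper and W2 domains 2 (r = 0.967) and metaxin 2 (r = 0.939), and MCM7 to PRP4 (r = 0.997) and heat shock protein 12B (r = 0.977). CCNB1 was closest to a row described as wu:fb72h05 (r = 0.995) and ubiquitin-conjugating enzyme E2Kb (r = 0.967). No gene of the replication and mitosis lists was among these 12 rows. Only 6 genes of those lists were tested rows, so this absence says little.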

How the data were processed

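The authors deposited 1 table of TPM with a column for each of 6 libraries, per the file headers, together with a row sum and a p-value per row, which were not used. Per the submitters' processing notes, Trimmomatic 0.33, Salmon 0.8.2 and edgeR 3.18.1 were named, without their roles. Per the labels' protocols, total RNA from manually sorted cells was made into Illumina TruSeq stranded mRNA libraries. The assembly, protein search and choice of rows are not named in those sources. Of 7081 rows 1 exact repeat was removed, and 1576 of 7080 carried a description, matched by hand to symbols. Where a symbol had several rows, the most abundant one was taken for the lists. The second rows of SOX9, RTN1, GPM6B and SHH are given beside it. None of the accessions matched the skate gene table (0 matches), which served for symbols only, with a or b endings allowed. Sequences are not shown.

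Groups were compared with limma 3.58.1 in R 4.3.3 on log2(TPM + 1), with a mean-variance trend, over 3752 rows at 1 TPM or more in at least 3 libraries, two-sided, Benjamini-Hochberg adjusted, threshold 0.05. Tests were checked on simulated data. Depth is unknown, so no counting interval was given. Members and gene lists were chosen with earlier results of these data known. The naming rule took the members, up to 8 genes of highest mean TPM from the progenitor and cell cycle lists, up to 4 from other lists, and the 2 described rows most like each member. Not every gene it takes is described, and PLK1, KIFC1, RBPJ, UCHL1, ISL2 and FOXP1 were named outside it. Alternatives were 2 pseudocounts, 2 filters, 2 scalings, no variance trend, array weights, a replicate block and leaving out libraries.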

Additional observations from a re-analysis of the deposited data

How the results depend on the processing

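Of 80 values of the 5 tested members recomputed under 16 alternatives, 77 kept their direction and their side of the threshold. Few rows of the table passed under most alternatives, so staying on the side that did not pass says little. Sizes moved within this count, with ID4 from 1.34 to 3.65 and MCM7 from 0.34 to 3.83 over the alternatives. MCM7 passed under the filter of 1 TPM in all 3 libraries of either group (log2 difference 1.22, adjusted p = 0.00634; highest adjusted p over its alternatives 0.942). That filter left 1929 rows, of which 76 passed. It is set by the group labels, so it is not independent of the comparison, and MCM7 met it through its pectoral values only. CCNB1, tested only with no filter on low values, was above 0 in all 16 and moved to 1.49 with a pseudocount of 0.1, against 0.55 with a pseudocount of 1. CDK1 reversed without tail replicate 1 (-0.13) and tail replicate 2 (-0.09), and its highest value without a library was 0.59. Without 1 library each, ID4 ranged from 1.57 to 3.65, FABP7 from 0.87 to 1.87, CCND1 from -3.30 to -1.60, MCM7 from 1.13 to 1.30 and CCNB1 from 0.14 to 0.98, with the tested rows kept as chosen over 6 libraries. The lowest limma adjusted p over all alternatives was 0.0883 for ID4 and 0.121 for CCND1, both under the same filter set by group labels.

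The count of rows passing over the table, 3, was 1 without a variance trend, 1 with a pseudocount of 0.1, 26 with array weights and 1 to 3 without 1 library each. Without pectoral replicate 1 and tail replicate 4 together, limma gave 0 and 368 rows had an unadjusted p under 0.05. Median-ratio scaling moved the median log2 difference of tested rows by 0.32, and ID4 was then 3.31 and CCND1 -2.28. The cause of these changes was not tested. With the replicate block, which rests on the libraries numbered 1 and 2 only, 1 row passed, ID4 was 1.34 and CCND1 was -2.83. The libraries share only a number: deviations correlated at -0.03 between the libraries numbered 1 and at -0.003 between those numbered 2, so the numbers were not taken to pair them. TPM keep no depth, which limits what a value of 0 can show.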
